A study of Arabidopsis thaliana with 22 samples.

Results

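The 10 genes described here are *PR1*, *PR2* and *PR5*, which encode pathogenesis-related proteins, the plant defensin genes *PDF1.1*, *PDF1.4* and *PDF1.2* with its near copies *PDF1.3*, *PDF1.2b* and *PDF1.2c*, and the thionin gene *THI2.1*. They were taken by identifier from a table of 33602 *Arabidopsis thaliana* genes, and all 10 were found. RNA was sequenced from whole 10-day-old seedlings in 22 libraries. The groups were the *lrx345* mutant at 0, 6, 24 and 72 h of treatment with 150 mM NaCl and the wild type (WT, Col-0) at the same times, with 2 libraries in each group at 0 h and 3 in every other group. The *lrx345* mutant carries insertions in *LRX3*, *LRX4* and *LRX5*, genes for cell wall proteins of the leucine-rich repeat extensin type, in all of its tissues. No seedlings kept without NaCl were sequenced at the later times, so time under NaCl and age of the seedling cannot be told apart. The genes were selected on earlier results of these libraries, which were read here as their levels at 0 h and 72 h. Values at 0 h and 72 h, and changes from or to these times, are therefore given as a description with no test. The 10 genes were tested only in comparisons among the groups of 6 h and 24 h. The libraries of 6 h and 24 h are other seedlings of the same genotypes. The filter, the scaling and the spread per gene were nevertheless taken from all 22 libraries.

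*PR1*, *PR2* and *PR5* are a readout of salicylic acid (SA), a hormone made mainly against pathogens that feed on living tissue, and *PR1* is the standard marker of the response. Plant defensins of the PDF1 group are small antifungal proteins held together by disulfide bonds, and *PDF1.2* is the standard marker of the branch of the jasmonate (JA) response that works together with ethylene. *THI2.1* encodes a thionin, a small toxic peptide that is also induced by JA. SA and JA responses often counteract each other in leaves.

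Of the 3 genes mutated in *lrx345*, *LRX3* (AT4G13340) had 10.5 ± 0.969 FPKM (SD, n = 2) in *lrx345* and 41.1 ± 5.26 FPKM in WT at 0 h (FPKM, fragments scaled to exon length and to library size). AT4G18670 had 6.51 ± 0.579 and 38.2 ± 3.02 FPKM in these groups, and AT3G24480 had 60.4 ± 0.754 and 88.5 ± 11.2 FPKM. *LRX3* and AT4G18670 were past both thresholds (an adjusted p below 0.05 together with more than a 2-fold change) at every time, whereas AT3G24480 was past both at 24 h only, where its log2 fold change was -1.33. Total counts ran from 7413461 to 15047080 per library. In whole seedlings, less RNA per cell and fewer cells of a type cannot be told apart.

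Of the defensin genes, 4 are near copies. *PDF1.2* and *PDF1.2c* lie side by side on the minus strand of chromosome 5 with 1211 bases between them, and *PDF1.3* and *PDF1.2b* lie side by side on the plus strand of chromosome 2 with 1121 bases between them. The 4 coding sequences are shown because their likeness bears on how reads were assigned to each gene. Each is 243 bases long in 2 exons, read from TAIR10.1 with the RefSeq annotation, and capitals mark the bases that differ from *PDF1.2*. The exons are at chr5:17907487-17907550 and chr5:17907216-17907394 for *PDF1.2*, chr5:17909381-17909444 and chr5:17909092-17909270 for *PDF1.2c*, chr2:11089281-11089344 and chr2:11089419-11089597 for *PDF1.2b* and chr2:11087411-11087474 and chr2:11087577-11087755 for *PDF1.3*.
PDF1.2: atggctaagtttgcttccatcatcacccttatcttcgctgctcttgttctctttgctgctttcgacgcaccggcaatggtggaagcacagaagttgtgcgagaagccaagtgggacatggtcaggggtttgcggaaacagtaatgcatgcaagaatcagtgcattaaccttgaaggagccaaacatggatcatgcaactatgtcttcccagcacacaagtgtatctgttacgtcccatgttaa
PDF1.2c: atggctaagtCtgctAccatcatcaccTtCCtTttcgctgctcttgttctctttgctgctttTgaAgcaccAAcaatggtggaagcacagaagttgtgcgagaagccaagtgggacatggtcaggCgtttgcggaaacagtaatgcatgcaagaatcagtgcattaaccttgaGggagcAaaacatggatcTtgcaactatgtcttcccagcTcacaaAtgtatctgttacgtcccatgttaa
PDF1.2b: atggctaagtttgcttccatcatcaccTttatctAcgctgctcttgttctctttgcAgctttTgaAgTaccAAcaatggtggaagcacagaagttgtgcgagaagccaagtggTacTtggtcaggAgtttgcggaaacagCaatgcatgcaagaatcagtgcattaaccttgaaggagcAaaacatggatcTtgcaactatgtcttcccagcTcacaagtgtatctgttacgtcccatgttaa
PDF1.3: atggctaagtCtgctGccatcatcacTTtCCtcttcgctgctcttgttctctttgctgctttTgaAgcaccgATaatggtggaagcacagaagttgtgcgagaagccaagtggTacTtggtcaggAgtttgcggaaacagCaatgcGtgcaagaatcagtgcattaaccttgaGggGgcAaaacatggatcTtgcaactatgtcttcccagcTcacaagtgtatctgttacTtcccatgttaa
*PDF1.2c* differed from *PDF1.2* at 16 bases, *PDF1.2b* at 15 and *PDF1.3* at 21, which is an identity of 93.4%, 93.8% and 91.4%. *PDF1.1* was 87.7% identical to *PDF1.2*, and *PDF1.4*, the most distant of the 6, was 57.4% identical. Fragments that matched several places were left out of the counts. Of the 50-base windows in the counted exons, 84.2% of those of *PDF1.2b* and 93.0% of those of *PDF1.3* occur once in the genome, against 99.1% and 99.2% for *PDF1.2* and *PDF1.2c* and 100% for the other 6 genes, and every 100-base window of all 10 genes is unique. *PDF1.2b* was counted over 274 exon bases, against 428 to 495 for the other defensin genes, because the annotation the authors used ends its model at the stop codon. Of the 6, it thus had the smallest share of unique 50-base windows and the shortest counted length, which makes its level uncertain.

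Near the gene start, *PDF1.2* and *PDF1.2b* share a motif that the other members do not have there. GCCGCC, the core of the GCC box bound by ethylene response factors such as ORA59, was searched on both strands from 250 bases before to 50 bases after the RefSeq gene start. Only *PDF1.2* and *PDF1.2b* of the 10 genes had it, against 2.6% of 27443 protein-coding genes. The 120 bases around it are shown with the match in capitals, from chr5:17907766-17907885 (minus strand) and chr2:11088955-11089074 (plus strand) of TAIR10.1.
PDF1.2: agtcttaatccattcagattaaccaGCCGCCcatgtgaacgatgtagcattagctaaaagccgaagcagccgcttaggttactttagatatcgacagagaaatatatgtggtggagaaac
PDF1.2b: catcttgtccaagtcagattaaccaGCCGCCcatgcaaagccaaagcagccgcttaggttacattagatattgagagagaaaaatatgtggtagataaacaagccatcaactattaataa
The match begins at position -222 from the gene start in *PDF1.2* and at -143 in *PDF1.2b*. TGACG, the core of the element bound by TGA factors, was found in this window in *PDF1.4* alone, against 23.1% of all genes. In the 1000 bases before the start, TGACG was found in 8 of the 10 genes, against 54.1% of all genes, with 2 matches each in *PR1* and *PR2*. *PR1* also had 1 GCCGCC match there, against 8.4% of all genes. A match in these windows is a description of the sequence and says nothing of binding.

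*PR1* (AT2G14610, chromosome 2, 6241704 to 6242463, minus strand) was the most abundant of the 10 transcripts in *lrx345* before NaCl and remained so up to 24 h. Its level was 489 and 639 FPKM in the *lrx345* libraries at 0 h, against 3.31 and 10.3 FPKM in those of WT. At 6 h it was 580, 358 and 457 FPKM in *lrx345*, against 6.14, 3.85 and 1.98 FPKM in WT. The lowest *lrx345* library was more than an order of magnitude above the highest WT library at both times. At 24 h it was 372, 285 and 351 FPKM in *lrx345*, against 9.37, 9.07 and 7.15 FPKM in WT. At 72 h it was 34.2, 22.5 and 46.1 FPKM in *lrx345*, against 26.7, 50.1 and 33.1 FPKM in WT. The genotypes overlapped at 72 h and at no earlier time. The log2 fold change of *lrx345* over WT was 6.82 (SE 0.36, adjusted p = 1.06e-12, edgeR; SE, standard error) at 6 h and 5.31 (SE 0.33, adjusted p = 4.94e-12) at 24 h. Without a test, it was 6.36 ± 0.41 (SE) at 0 h and -0.10 ± 0.28 at 72 h. The value at 0 h rests on 2 unlike WT libraries: it was 5.77 without WT 0 h replicate 1 and 7.41 without the WT 0 h library that bears no number. From 0 h to 72 h the level was lower by 4.05 ± 0.30 on the log2 scale in *lrx345*, or 16.5-fold, and higher by 2.41 ± 0.38 in WT (1.82 to 3.46 when single libraries were left out), so that the genotypes met from both sides.

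*PR2* (AT3G57260, chromosome 3, 21188517 to 21189859, minus strand), which encodes a β-1,3-glucanase that cleaves fungal cell walls, had a smaller decline in *lrx345* from 0 h to 72 h than *PR1*. In *lrx345* it had 144 and 151 FPKM at 0 h, 120, 104 and 119 FPKM at 6 h, 237, 142 and 180 FPKM at 24 h and 68.7, 43.8 and 63.3 FPKM at 72 h. In WT it had 5.17 and 4.72 FPKM at 0 h, 4.07, 3.55 and 3.41 FPKM at 6 h, 9.99, 10.0 and 6.84 FPKM at 24 h and 37.1, 30.5 and 24.9 FPKM at 72 h. Every *lrx345* library was above every WT library at each time, by the smallest margin at 72 h. The log2 fold change was 4.95 (SE 0.22, adjusted p = 5.7e-14) at 6 h and 4.39 (SE 0.20, adjusted p = 4.53e-14) at 24 h. It was 4.90 ± 0.25 at 0 h and 0.92 ± 0.17 at 72 h.

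*PR5* (AT1G75040, chromosome 1, 28177703 to 28178940, plus strand), a thaumatin-like antifungal protein gene, had the smallest difference between genotypes of the 3 PR genes up to 24 h. It had 54.0 and 53.0 FPKM in *lrx345* at 0 h, against 4.18 and 4.80 FPKM in WT. At 6 h it had 38.5, 36.7 and 33.8 FPKM in *lrx345*, against 2.84, 2.99 and 2.3 FPKM in WT. At 24 h it had 41.0, 25.8 and 30.6 FPKM in *lrx345*, against 3.95, 2.05 and 2.46 FPKM in WT. The log2 fold change was 3.74 (SE 0.19, adjusted p = 9.62e-13) at 6 h and 3.52 (SE 0.20, adjusted p = 1.31e-12) at 24 h. At 72 h it had 10.0, 10.3 and 7.97 FPKM in *lrx345*, against 5.52, 7.89 and 5.78 FPKM in WT, a log2 difference of 0.57 ± 0.19 in which the nearest libraries were almost level.

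**Figure D1:**
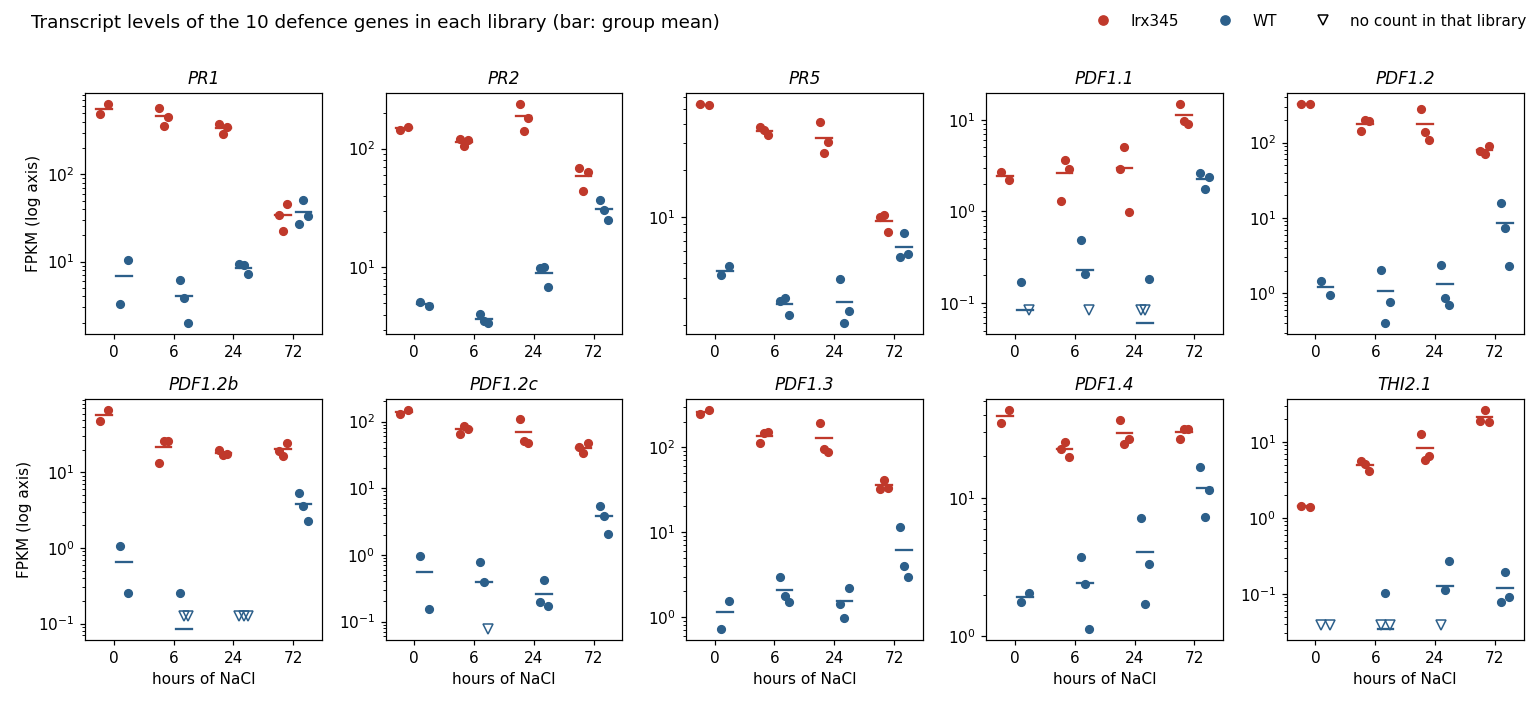
Each panel plots the FPKM of one gene on a log axis against hours of NaCl, with 1 point per library of *lrx345* (red, left) and WT (blue, right), a bar at the group mean and an open triangle for a library with no count, placed below the lowest value above 0. In *lrx345*, 8 genes were lower at 72 h than at 0 h and *PDF1.1* and *THI2.1* were higher; the genotypes overlapped only for *PR1* at 72 h.

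*PDF1.2* (AT5G44420, chromosome 5, 17907069 to 17907598, minus strand) had a genotype difference at 0 h as large as those of *PDF1.2c* and *PDF1.3*, within their standard errors. It had 325 FPKM in both *lrx345* libraries at 0 h, against 1.47 and 0.962 FPKM in WT, where this rested on 9 and 6 fragments. At 6 h it had 141, 199 and 194 FPKM in *lrx345*, against 2.07, 0.405 and 0.763 FPKM in WT. At 24 h it had 278, 140 and 108 FPKM in *lrx345*, against 2.41, 0.874 and 0.709 FPKM in WT. The *lrx345* libraries differed by more than 2-fold among themselves at 24 h and still stood far above WT. At 72 h it had 77.5, 70.9 and 90.2 FPKM in *lrx345*, against 16, 7.40 and 2.3 FPKM in WT, the widest spread of any WT group for this gene. The log2 fold change was 7.25 (SE 0.50, adjusted p = 8.01e-11) at 6 h and 7.03 (SE 0.50, adjusted p = 4.76e-11) at 24 h, with 8.03 ± 0.58 at 0 h and 3.16 ± 0.37 at 72 h as a description. Without WT 72 h replicate 1, the highest of its group, the value at 72 h was 4.05.

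*PDF1.3* (AT2G26010), *PDF1.2c* (AT5G44430) and *PDF1.2b* (AT2G26020) were likewise higher in every *lrx345* library than in any WT library at each time. *PDF1.3* averaged 261 ± 19 FPKM in *lrx345* and 1.14 ± 0.590 FPKM in WT at 0 h (SD, n = 2 each), and 137 ± 21.6 FPKM in *lrx345* and 2.09 ± 0.763 FPKM in WT at 6 h (n = 3 each). *PDF1.2c* averaged 141 ± 12.8 FPKM in *lrx345* and 0.553 ± 0.563 FPKM in WT at 0 h, and 76.2 ± 10.0 FPKM in *lrx345* and 0.387 ± 0.385 FPKM in WT at 6 h. *PDF1.2b* averaged 57.3 ± 13.8 FPKM in *lrx345* and 0.652 ± 0.560 FPKM in WT at 0 h, and 21.7 ± 7.14 FPKM in *lrx345* at 6 h. For *PDF1.2b*, a single fragment was counted in the 3 WT libraries at 6 h, against 204 in *lrx345*, a ratio of 231 with a 95% counting interval of 41.0 to 9170, and none was counted in WT at 24 h, which makes it at least 17.1-fold higher in *lrx345* against a floor of 3 counts per library. At 24 h, the log2 fold change was 6.31 (SE 0.41, adjusted p = 1.25e-11) for *PDF1.3* and 7.95 (SE 0.51, adjusted p = 1.1e-11) for *PDF1.2c*. The value of *PDF1.2c* rests on 4 fragments in the 3 WT libraries at 24 h, against 762 in *lrx345*, a ratio of 270 with a 95% counting interval of 105 to 993. At 0 h, 7 fragments of *PDF1.2c* and 5 of *PDF1.2b* were counted in WT, against 1709 and 414 in *lrx345*. At 72 h *lrx345* exceeded WT by 2.47 ± 0.34, 3.38 ± 0.33 and 2.39 ± 0.32 on the log2 scale for *PDF1.3*, *PDF1.2c* and *PDF1.2b*, and without WT 72 h replicate 1 the value of *PDF1.3* was 3.35.

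When the counts of the 4 near copies were summed, so that no fragment could be counted for the wrong copy among them, the log2 fold change of the sum was 6.71 (SE 0.41, adjusted p = 1.29e-11) at 6 h and 6.89 (SE 0.43, adjusted p = 5.68e-12) at 24 h. Of this sum in *lrx345*, *PDF1.2* made up between 39.1% and 47.0% over the 11 libraries and *PDF1.2c* between 16.9% and 25.4%. The share of *PDF1.3* ranged more widely, from 19.6% to 37.3%, and that of *PDF1.2b* from 1.96% to 8.06%. These are shares of counted fragments, which also depend on exon length and on how much of each copy is unique.

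*PDF1.4* (AT1G19610), the defensin gene least like the others in sequence, had the smallest genotype difference of the defensins at 24 h. It averaged 39.2 ± 5.92 FPKM in *lrx345* and 1.92 ± 0.196 FPKM in WT at 0 h, and 22.6 ± 2.95 FPKM in *lrx345* and 2.44 ± 1.32 FPKM in WT at 6 h. It averaged 29.4 ± 6.47 FPKM in *lrx345* and 4.07 ± 2.78 FPKM in WT at 24 h, and 29.9 ± 2.78 FPKM in *lrx345* and 11.8 ± 4.72 FPKM in WT at 72 h. The level in *lrx345* thus differed little between 0 h and 72 h, by -0.38 ± 0.27 on the log2 scale, while that in WT was higher by 2.63 ± 0.44. The log2 fold change between genotypes was 3.17 (SE 0.35, adjusted p = 1.89e-07) at 6 h and 2.84 (SE 0.33, adjusted p = 1.66e-07) at 24 h.

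*PDF1.1* (AT1G75830) and *THI2.1* (AT1G72260) ran the other way with time in *lrx345*. *PDF1.1* had 2.71 and 2.23 FPKM in *lrx345* at 0 h, 1.3, 3.60 and 2.91 FPKM at 6 h, 2.91, 5 and 0.983 FPKM at 24 h and 14.9, 9.68 and 9.01 FPKM at 72 h. In WT it had between 0 and 3 fragments in each library up to 24 h, and 2.65, 1.75 and 2.36 FPKM at 72 h. Its log2 fold change of 3.32 at 6 h (SE 0.71, adjusted p = 0.000697) is therefore imprecise, and at 24 h the ratio was 46.7 with a 95% counting interval of 7.82 to 1900. *THI2.1* had 1.42 and 1.41 FPKM in *lrx345* at 0 h, 5.70, 5.10 and 4.13 FPKM at 6 h, 12.6, 5.84 and 6.51 FPKM at 24 h and 18.8, 26.5 and 18.4 FPKM at 72 h. In WT, no library held more than 3 fragments of *THI2.1* at any time, so it was not detectable above that floor in any WT group. It was at least 5.66-fold higher in *lrx345* at 0 h, and the ratio at 6 h was 160 with a 95% counting interval of 28.2 to 6350. At 72 h, with 586 fragments in *lrx345* and 4 in WT, the ratio was 186 with an interval of 72.3 to 686. From 0 h to 72 h, its level in *lrx345* was higher by 3.90 ± 0.35 on the log2 scale, and that of *PDF1.1* by 2.14 ± 0.44.

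Counted together, all 10 genes passed both thresholds in the direction of higher levels in *lrx345* at 6 h, where 10.2% of the 21831 genes tested did so. All 10 also passed at 24 h, where 13.3% did so, and at these times 1.94% and 4.77% of genes were called lower. No *lrx345* library overlapped with a WT library for any of the 10 at these times, against 22.7% of genes at 6 h and 25.6% at 24 h that were higher without overlap. At 0 h none of the 10 overlapped, where 25.8% of genes were higher without overlap, and at 72 h *PR1* alone did, where 33.4% were, and nothing is read from these 2 counts because the genes were selected on those times. The median log2 fold change of the 10 genes was 6.4 at 6 h and 5.57 at 24 h, against -0.05 and -0.08 for all genes tested. These counts concern genes already known to be higher at 0 h in the same genotype. All 10 passed the filter on low counts, and 9 would have passed it on the WT libraries alone, those of 72 h included, the exception being *THI2.1*. At 6 h the WT libraries together held 19 fragments of *PDF1.2*, 7 of *PDF1.2c*, 4 of *PDF1.1*, 1 of *PDF1.2b* and 1 of *THI2.1*. At 24 h they held 20, 4, 1, 0 and 4, in this order. The calls of these genes thus rest on their high level in *lrx345* against few fragments in WT.

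**Figure D2:**
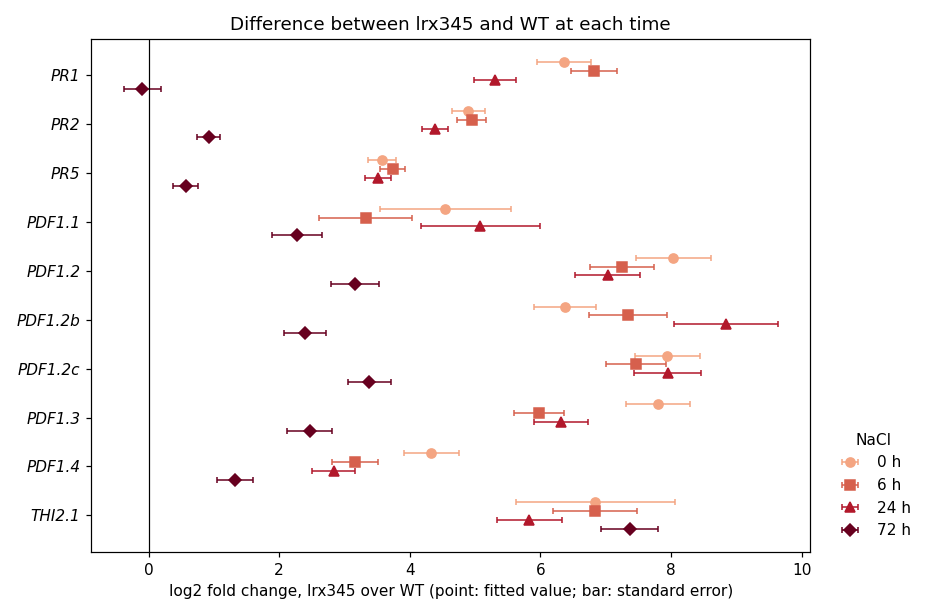
The fitted log2 fold change of *lrx345* over WT is plotted for each gene at 0, 6, 24 and 72 h, with bars of 1 standard error. The values at 72 h lie left of those at 0, 6 and 24 h for the 9 genes other than *THI2.1*, whose WT libraries held at most 3 fragments at every time, so that its points give no order. That of *PR1* at 72 h lies near 0, and values of *PDF1.1*, *PDF1.2b* and *PDF1.2c* before 72 h rest on WT groups with 10 or fewer fragments.

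Between 6 h and 24 h of NaCl, the levels in *lrx345* moved little. None of the 10 genes passed both thresholds at 24 h against 6 h in *lrx345*, where 6.2% of genes were higher and 5.99% lower; *PR2* (log2 fold change 0.71, SE 0.16, adjusted p = 0.00119) and *THI2.1* (0.74, SE 0.28, adjusted p = 0.0345) passed on the adjusted p alone in edgeR, as 21% of genes did in this direction and 21.2% in the other, and these 2 were also the only ones at an unadjusted p under 0.05. DESeq2 called none of the 10 at both thresholds. In WT, *PR2* was up-regulated at 24 h against 6 h, with a log2 fold change of 1.27 (SE 0.24, adjusted p = 0.000232), and it was the only member called, against 5.47% of genes that were higher and 4.97% that were lower. *PR1* was higher in every WT library at 24 h than in any at 6 h but did not pass (1.05, SE 0.43, adjusted p = 0.0564). It was called with DESeq2, without a filter on low counts, without the WT 0 h library that bears no number (with or without a replicate block), with only the groups compared and without WT 6 h replicate 1, where its log2 fold change was 1.52.

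The genotype difference itself was compared between the times. For *PR1* it was smaller at 24 h than at 6 h by 1.52 on the log2 scale (log2 value -1.52, SE 0.49, adjusted p = 0.0367, edgeR interaction contrast), the only 1 of the 10 genes past both thresholds, against 3.47% of genes in this direction and 3.55% in the other. The call was lost with DESeq2 (adjusted p = 0.0527), and the adjusted p ran up to 0.118 when single libraries were left out. It was also lost without WT 24 h replicate 1 or 2, *lrx345* 24 h replicate 2, WT 6 h replicate 2 or 3, or *lrx345* 6 h replicate 1 or 3. For the other 9 genes the difference between the times had adjusted p values from 0.218 to 0.932, with standard errors from 0.29 for *PR2* to 1.61 for *PDF1.2b*.

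The change from 0 h to 72 h had opposite directions in the genotypes for 8 of the 10 genes. *PR1*, *PR2*, *PR5*, *PDF1.4*, *PDF1.3*, *PDF1.2c*, *PDF1.2b* and *PDF1.2* were lower in every *lrx345* library at 72 h than in any at 0 h, and higher in every WT library at 72 h than in any at 0 h. Of all genes tested, 38.2% were lower without overlap in *lrx345*, 33.7% were higher without overlap in WT, and 3.51% were both. Nothing is read from the count of 8, because the genes were selected on these times. In *lrx345* the difference ranged from -0.38 for *PDF1.4* to -4.05 for *PR1* on the log2 scale, with -2.87 ± 0.28 for *PDF1.3*, -2.50 ± 0.17 for *PR5* and -2.03 ± 0.30 for *PDF1.2*. In WT it ranged from 0.50 ± 0.23 for *PR5* to 2.84 ± 0.80 for *PDF1.2* among these 8. The value of *PDF1.4* in *lrx345*, -0.38 ± 0.27, is little larger than its error, and that of *PDF1.2* in WT was 1.95 without WT 72 h replicate 1. Most of the decline of the PR genes in *lrx345* lay between 24 h and 72 h, with 72 h against 24 h at -3.30 ± 0.28 for *PR1*, -1.78 ± 0.17 for *PR5* and -1.67 ± 0.17 for *PR2*. For *PDF1.2b* a lower level was already present at 6 h against 0 h, by 1.37 ± 0.26 on the log2 scale, and the libraries of 24 h and 72 h overlapped.

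Summed over the 10 genes, *lrx345* libraries held between 989.8 and 1121 CPM at 0 h (CPM, counts scaled to library size), 692 to 834.5 at 6 h, 564.2 to 848.4 at 24 h and 179.8 to 214.9 at 72 h. WT libraries held 16.6 to 21.4, 9.79 to 18, 20 to 29 and 71.9 to 98.1 at these times. The summed level at 72 h was thus still higher in every *lrx345* library than in any of WT, and the makeup of the sum had changed. The ratio of *PR1* to *PR2* in FPKM was 3.41 to 4.22 in *lrx345* at 0 h and 0.499 to 0.728 at 72 h. The ratio of *PR1* to *PDF1.2* was 1.51 to 1.97 in *lrx345* at 0 h and 0.317 to 0.511 at 72 h.

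**Figure D3:**
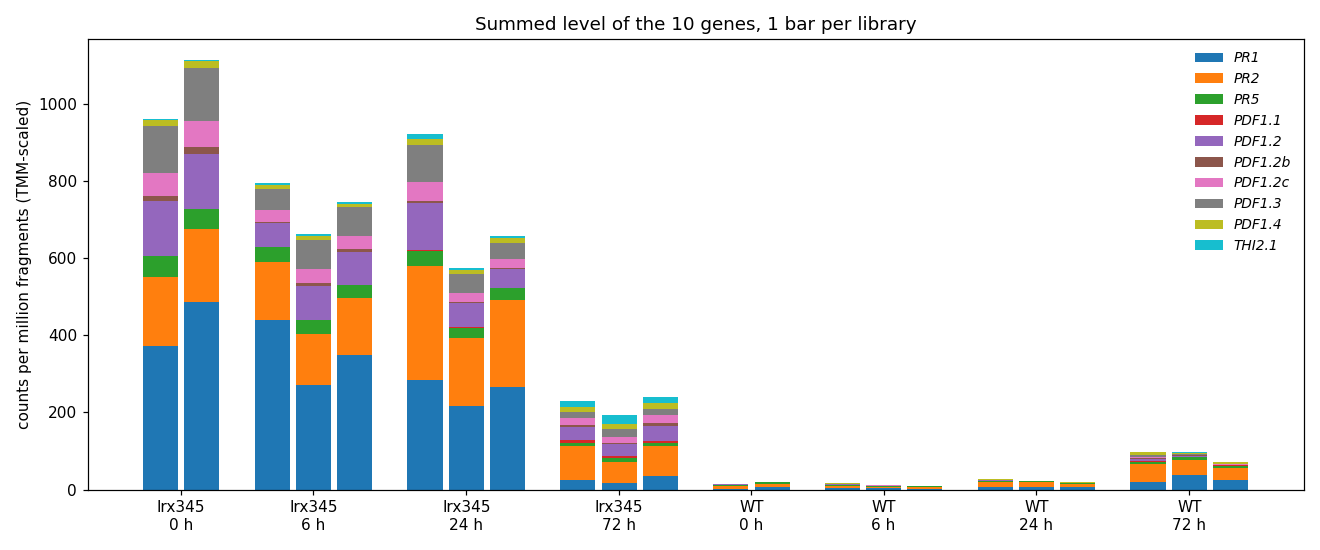
Each bar is 1 library, with the TMM-scaled CPM of the 10 genes stacked in colour, *lrx345* on the left and WT on the right, each from 0 to 72 h. *PR1* (bottom segment) is the largest part in *lrx345* at 0 h and 6 h, while *PR2* is larger than *PR1* in every *lrx345* library at 72 h, and *THI2.1* (top segment) is visible mainly at 72 h.

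Within the 11 *lrx345* libraries, the log2 levels of the genes varied together to different degrees, given as a description without a test because the libraries share time points. Pearson's r was 0.956 between *PR1* and *PR5* and 0.855 between *PR1* and *PR2*. It was 0.981 between the tandem genes *PDF1.2* and *PDF1.2c* and 0.963 between *PDF1.2* and *PDF1.3*, which lie on different chromosomes. Between the 3 PR genes and these 3 defensin genes it ran from 0.658 for *PR2* with *PDF1.2c* to 0.969 for *PR5* with *PDF1.3*. *PDF1.2b*, the other near copy, stood apart, with 0.675 to *PDF1.2*, 0.338 to *PR1* and 0.203 to *PR2*. *PDF1.1* and *THI2.1* ran against *PR1*, at -0.873 and -0.831, and *PDF1.4* was at -0.04 with *PR1*.

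Genes known to control these markers were compared in the same way, and also tested at 0 h and 72 h. They were chosen with earlier results of these data known, so their p-values are descriptive. *WRKY70*, a transcription factor gene that acts in SA responses, averaged 70.1 ± 8.07 FPKM in *lrx345* and 4.90 ± 0.535 FPKM in WT at 6 h, and 243 ± 20.4 FPKM in *lrx345* and 9.73 ± 3.59 FPKM in WT at 72 h (SD, n = 3 each). Its level in *lrx345* was thus highest at 72 h, where *PR1* was lowest. *ICS1*, which encodes the isochorismate synthase of SA biosynthesis, was higher in *lrx345* at 0, 6 and 24 h by 1.05, 1.46 and 1.85 on the log2 scale (adjusted p = 1.94e-06, 2.48e-10 and 9.47e-13), and its value of 0.14 at 72 h did not pass (adjusted p = 0.28). *NPR1*, the SA receptor and coactivator of *PR1*, differed by 0.53 to 0.90 over the 4 times, past the adjusted p but below a 2-fold change at each.

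*ORA59*, an ethylene response factor gene that activates *PDF1.2*, averaged 41.5 ± 4.79 FPKM in *lrx345* and 5.48 ± 0.773 FPKM in WT at 24 h, and 7.08 ± 1.15 FPKM in *lrx345* and 13.9 ± 4.14 FPKM in WT at 72 h. Its log2 fold change was 2.92 (SE 0.19, adjusted p = 1.23e-11) at 24 h and -0.98 (SE 0.19, adjusted p = 0.000125) at 72 h, the second being below a 2-fold change. *ERF1B* was higher in *lrx345* at all 4 times, by 2.27, 2.98, 5.16 and 1.09 on the log2 scale. Its difference was larger at 24 h than at 6 h (interaction 2.18, adjusted p = 0.00893). None of the defensin genes passed that test, with values from -0.33 for *PDF1.4* to 1.76 for *PDF1.1*. Their standard errors ran from 0.52 for *PDF1.4* to 1.61 for *PDF1.2b*, too wide in several to exclude a change like that of *ERF1B*. Whether *ERF1B* differed from the defensin genes in this was not tested. *MYC2*, which drives the other branch of the JA response and can repress *PDF1.2*, was also higher at all 4 times, by 1.19, 2.49, 3.64 and 1.90 on the log2 scale (adjusted p = 8.55e-05, 3.13e-11, 7.4e-14 and 4.57e-10).

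**Figure D4:**
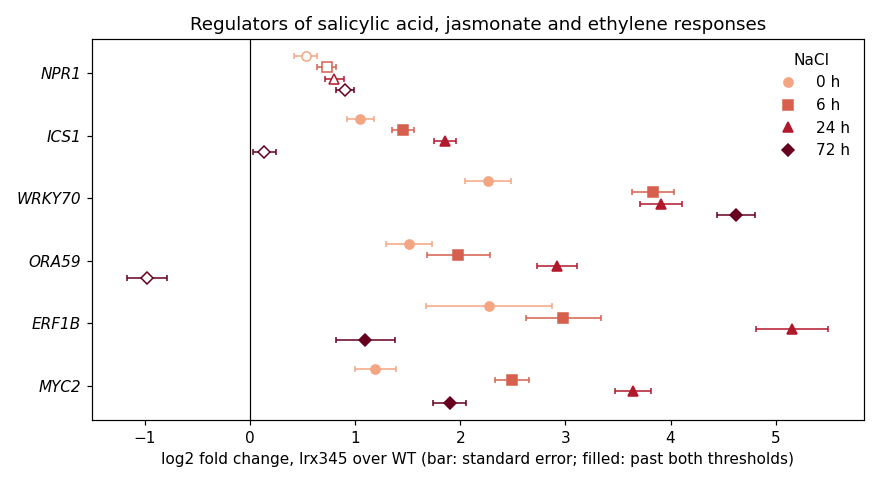
Log2 fold changes of *lrx345* over WT are plotted for 6 regulator genes at 0, 6, 24 and 72 h with bars of 1 standard error, and filled symbols passed both thresholds. *ORA59* lies right of 0 up to 24 h and left of 0 at 72 h, *WRKY70* lies farthest right at 72 h, and *NPR1* stays below a 2-fold change at every time.

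Over the whole list of 23 genes of SA synthesis and signalling, 14 were higher in *lrx345* at 0 h, 14 at 6 h, 15 at 24 h and 11 at 72 h, and none was lower, where 5.28%, 10.2%, 13.3% and 16.3% of all genes were higher and 1.14%, 1.94%, 4.77% and 8.27% lower. The TGA factor genes *TGA2*, *TGA3*, *TGA5* and *TGA6* did not pass at 6 h, with log2 fold changes between -0.07 and 0.13. Of 11 JA and ethylene regulators of defensin genes, *MYC2*, *ERF1B* and *ERF2* were higher at all 4 times and *ORA59* up to 24 h, and the other 7 did not pass at any. Of 5 markers of the MYC branch, 5 were higher at 0, 6 and 24 h and 4 at 72 h. All gene lists, here and below, were chosen with earlier results of these data known. Their counts are therefore a description and no independent test.

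The other members of the PR families differed unevenly. Of 10 tested, 4 were higher at 0 h, 3 at 6 h, 5 at 24 h and 5 at 72 h, with 0, 0, 1 and 2 lower. At these times, 5.28%, 10.2%, 13.3% and 16.3% of all genes were higher and 1.14%, 1.94%, 4.77% and 8.27% lower. *HEL* (also called *PR4*), a hevein-like protein gene, was higher at 0, 6 and 24 h by 2.65, 2.12 and 2.3 on the log2 scale, and the chitinase gene *CHI-B* (*PR3*) at 0, 24 and 72 h by 2.32, 1.85 and 1.64. The osmotin-like *OSM34* was higher at 0, 24 and 72 h by 2.38, 1.12 and 1.58. *PR-1-LIKE*, of the same family as *PR1*, was lower at 24 h and 72 h (-1.40 and -1.99), and *PRB1*, another, was higher at 6 h by 1.71 and lower at 72 h (-1.3). Of 12 other defensin and thionin genes, 6 had enough counts for a test. The thionin gene AT1G66100 was higher at all 4 times, by 2.3, 2.14, 4.77 and 4.83 on the log2 scale, the defensin genes *PDF2.3* and *PDF2.5* were lower at 24 h (-1.11 and -3.13) and at 72 h (-2.11 and -1.72), and *PDF1.5*, *PDF2.1* and *PDF2.2* did not pass at any time.

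The genes most like *PR1* across all 22 libraries, by Pearson's r of log2 CPM among 16827 genes, were AT4G29700 (0.936), *PBS3* (0.934) and *PAD4* (0.934). Those most like *PDF1.2* were AT2G43530 (0.976), *MBP1* (0.970), a myrosinase-binding protein gene, and *JAL23* (0.969), a jacalin-related lectin gene. *PBS3* and *PAD4* both act in SA biosynthesis and signalling and are on the list above. The libraries of both genotypes enter these correlations, and how far the difference between genotypes sets them was not tested.

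Markers of shoot and root RNA also differed between the genotypes. The summed FPKM of 7 shoot markers, all detected in every group, was 9920 to 12160 in *lrx345* and 23080 to 26780 in WT at 72 h, and 13810 to 15520 in *lrx345* and 19770 to 19940 in WT at 0 h. That of 8 root markers was 6296 to 8039 in *lrx345* and 3308 to 3574 in WT at 72 h, and 1894 to 1989 in *lrx345* and 1771 to 2025 in WT at 6 h. *PYK10* alone, a root β-glucosidase gene, carried this sum, with a mean of 7172 FPKM in *lrx345* and 3093 FPKM in WT at 72 h. Without it, a choice made after the values were seen, the other 7 root markers summed to 78.3 to 99.3 in *lrx345* and 315 to 369 in WT at 72 h, which is the opposite direction. None of the shoot markers was called at 0, 6 or 24 h and 4 of 7 were lower at 72 h. Of 8 root markers, 1 was lower at 0 h, 4 at 6 h, 6 at 24 h and 5 at 72 h, where 2 were higher. Among all genes tested, 1.14%, 1.94%, 4.77% and 8.27% were lower at 0, 6, 24 and 72 h, and 16.3% were higher at 72 h. The part of these markers in the levels of the 10 genes was not tested.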

How the data were processed

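RNA was sequenced from whole seedlings of 2 genotypes at 4 times of NaCl treatment. Reads were aligned by the authors against TAIR10 using TopHat2 (version not given in the sources used here), and they deposited raw counts of read pairs per gene, made with featureCounts 1.4.6 over exons, without regard to strand and without fragments that matched several places or genes. These filters lower the counts of near-identical genes. The deposited table also gives the summed exon length. One WT column at 0 h bears a replicate number that matches no title and was used as a WT library at 0 h without a number.

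The counts were fitted in R 4.3.3 with edgeR 4.0.16 (TMM scaling, filterByExpr by group, glmQLFit and glmQLFTest, 1 model for all 22 libraries with a mean per group) over 21831 genes, with Benjamini-Hochberg adjustment. A gene was called at an adjusted p below 0.05 together with more than a 2-fold change. Standard errors were approximated as the log2 fold change over the square root of F. FPKM were computed from counts, exon lengths and TMM-scaled totals, which ran from 7413461 to 15047080 before scaling. Counting intervals are exact at 95% and cover counting error only. The labels do not say that replicates came from separate cultures, so p-values measure the spread between these libraries. Library pairs of 1 group all differed beyond counting noise (chi-square per degree of freedom 2.46 to 14.5 over 20 pairs). The code was tested on simulated data.

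The members and all gene lists were chosen with earlier results of these data known. Named beyond the members are the mutated genes, 6 regulators, tandem neighbours of *PR2* and *PR5*, listed genes where 5 or fewer of a list were called, and the 3 genes most like *PR1* and *PDF1.2* in log2 CPM (prior count 2, mean count of at least 50). The 4 TGA genes and *THI2.1*'s nearest gene were added after their values were seen, as were the 3 genes named from lists with more than 5 calls. Sequences come from RefSeq on TAIR10.1, where 98.0% of introns of the counted genes begin GT and end AG. Coding sequences were aligned as nucleotides, since no protein table was used. Alternatives were DESeq2 1.42.0, upper-quartile factors, no filter, a filter on the mean count (20 or more), a replicate block, only the groups compared, other thresholds, the 4 defensin copies summed, leaving out each library, and, added after seeing the data, the numbered libraries only and the root marker sum without *PYK10*.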

Additional observations from a re-analysis of the deposited data

Results flagged for a closer look

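For 8 genes, every *lrx345* library was lower at 72 h than at 0 h and every WT library was higher, so the genotypes moved in opposite directions, as for 3.51% of all genes tested. The change from 0 h to 72 h in *lrx345* minus that in WT, on the log2 scale, was -6.46 for *PR1*, -3.98 for *PR2*, -3.00 for *PR5*, -4.87 for *PDF1.2*, -3.99 for *PDF1.2b*, -4.56 for *PDF1.2c*, -5.34 for *PDF1.3* and -3.01 for *PDF1.4*. When single libraries were left out, they ran from -7.51 to -5.87 for *PR1*, -5.31 to -3.98 for *PDF1.2*, -5.21 to -3.33 for *PDF1.2b*, -6.24 to -3.79 for *PDF1.2c* and -5.98 to -4.45 for *PDF1.3*, with both ends for *PR1*, *PDF1.2b* and *PDF1.2c* reached without a WT library of 0 h. These differences were not tested, because the genes were chosen with the levels at both times known.

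For *PR1*, the difference between genotypes changed from 6 h to 24 h by -1.52 on the log2 scale (adjusted p = 0.0367, edgeR), a difference between times that passed its own test and was lost in several of the alternatives. All 3 *lrx345* libraries at 24 h lay below 2 of the 3 at 6 h, and all 3 WT libraries at 24 h lay above those at 6 h.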

How the results depend on the processing

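At 6 h and 24 h, all 268 values that the alternatives gave for the 10 genes stayed past both thresholds and higher in *lrx345*. Not every alternative gave a value for *PDF1.1*, whose counts were too low for some filters. Beyond the fits without single libraries, *PDF1.1* had 6 values at each time, against 8 for *PR1*. With the 4 copies summed, all 7 features passed at both times. The 28 listed genes called in either direction at 0 h became 27 to 29 without single libraries and 28 to 35 elsewhere, and the 28 at 72 h became 26 to 30 and 27 to 40. With all libraries, those at 0 h were all higher in *lrx345*. Those at 72 h included lower genes, 2 of the other PR family members and 2 of the other defensin genes. In *lrx345* at 24 h against 6 h, the count of 0 became 2 on the adjusted p alone. In WT at 24 h against 6 h, the count of 1 became 2 with DESeq2, without a filter, without the unnumbered WT 0 h library, with the replicate block, with only the groups compared (where 5 of the 10 genes had enough counts) and on the unadjusted p, and ran from 1 to 2 without single libraries; *PR2* was called throughout (1.17 to 1.44 without single libraries). The change of the genotype difference between 6 h and 24 h gave 0 with DESeq2 and 0 to 1 without single libraries, where *PR1* ran from -1.97 to -1.20. The cause of these changes was not tested. The numbers do not pair the libraries (correlation of same-numbered libraries from -0.115 to 0.0931), so the block is given here alone. It could be fitted only to the 21 numbered libraries, over 22223 genes, and added the *PR1* call in WT (1.05, adjusted p = 0.0419). The same libraries without the block, an alternative chosen after seeing the data, added it too (adjusted p = 0.0335). Under both, the other counts of members kept their values. The untested difference of *PR1* at 72 h against 0 h was -7.59 with the block and -7.51 without, against -6.46 with all libraries. Upper-quartile factors moved the median of all genes from -0.08 to -0.16 at 24 h and from -0.01 to -0.11 at 72 h and changed no call of a member.

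Some values that did not pass changed sign. *PDF1.2* in *lrx345* at 24 h against 6 h (-0.02) was 0.03 with the filter at a mean count of 20 and 0.01 with DESeq2. Without single libraries, this value ran from -0.52 to 0.22, that of *PDF1.1* (0.19) from -0.44 to 0.56, *PDF1.2c* (-0.15) from -0.64 to 0.05 and *PDF1.3* (-0.12) from -0.57 to 0.08. In WT it ran from -0.26 to 0.22 for *PR5* (0.06), -0.54 to 1.1 for *PDF1.2* (0.19), -2.21 to 0.00 for *PDF1.2b* (-1.80) and -1.17 to 0.35 for *PDF1.2c* (-0.64). The difference between the times ran from -0.43 to 0.09 for *PR5* (-0.22), -1.11 to 0.52 for *PDF1.2* (-0.22), -0.28 to 1.91 for *PDF1.2b* (1.5), -0.49 to 1.02 for *PDF1.2c* (0.49), -0.12 to 0.71 for *PDF1.3* (0.33), -0.80 to 0.32 for *PDF1.4* (-0.33) and -2.81 to 0.14 for *THI2.1* (-1.01). *THI2.1* in WT at 6 h against 0 h (1.80) ran from 0.00 to 2.32 on 1 fragment. Values in brackets are those with all libraries. Depth limits the WT values of *PDF1.1*, *PDF1.2b* and *PDF1.2c* before 72 h and of *THI2.1* at every time, and with 2 libraries per genotype the groups at 0 h take their spread from the others.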

Other observations

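*PR2* has the related β-1,3-glucanase genes *BG1* and *BG3* as neighbours on chromosome 3. *BG3* averaged 14.8 ± 1.21 FPKM in *lrx345* and 1.35 ± 0.836 FPKM in WT at 0 h (SD, n = 2 each), 8.70 ± 0.709 FPKM in *lrx345* and 0.781 ± 0.223 FPKM in WT at 6 h (n = 3 each), 11.8 ± 1.85 FPKM in *lrx345* and 6.01 ± 0.340 FPKM in WT at 24 h, and 1.69 ± 0.672 FPKM in *lrx345* and 1.98 ± 0.599 FPKM in WT at 72 h. Whether its course differs from that of *PR2* was not tested. Its log2 fold change was 3.43 (adjusted p = 1.51e-09, edgeR) at 6 h and 0.96 (adjusted p = 0.000542, below a 2-fold change) at 24 h, and this difference changed between 6 h and 24 h by -2.47 (adjusted p = 4.48e-05). *BG1* was close to undetected at 0 h, with at most 2 fragments per library in either genotype, and was higher in *lrx345* at 24 h (4.06, adjusted p = 7.75e-05) and 72 h (2.19, adjusted p = 0.000109). Beside *PR5*, *TLP-3*, another thaumatin-like gene, was not called between genotypes at any time (adjusted p from 0.0637 to 0.462), and AT1G75050 held at most 5 fragments in any library.

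*THI2.1* was most like *VSP1* over the 22 libraries (Pearson's r = 0.975), a vegetative storage protein gene that marks the MYC branch of the JA response; this pair was looked at after the values were seen. *VSP1* averaged 325 ± 33.1 FPKM in *lrx345* and 24.4 ± 3.98 FPKM in WT at 72 h, against 57.1 ± 6.17 FPKM in *lrx345* and 11.6 ± 2.2 FPKM in WT at 0 h (n = 2 each).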
